A study of Mus musculus with 12 samples.

Results

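The genes described here are the protein-coding neighbours of Lyz2 on mouse chromosome 10. Lyz2 is the gene from which Cre recombinase is made in the Lyz2-Cre genotype. The set comprises every protein-coding gene of the deposited table whose start lies between positions 112000000 and 122000000 of chromosome 10 in the mm10 build, with Ifng, Irak3 and Mdm2 left out. It holds 66 of the 54532 genes in the table. Its members were set by position and by leaving out those genes by name, with earlier results of these data known. The cells were bone marrow-derived macrophages, grown from marrow of 8-week-old mice in medium with 10 ng/ml of macrophage colony-stimulating factor. RNA was sequenced from 12 libraries in 4 groups of 3. The groups were Lyz2-Cre-Hdac3f/f cells without treatment (Lyz2-Cre for short), Hdac3f/f cells without treatment, Lyz2-Cre cells given 500 ng/ml lipopolysaccharide (LPS, a bacterial cell wall component) for 4 h, and Hdac3f/f cells given the same. Every group carried the floxed Hdac3 alleles, in which loxP sites flank part of the gene, and untreated cells spent the same 4 h in medium without LPS. None of the groups carried Lyz2-Cre without floxed Hdac3, so the Cre insertion, chromosome 10 sequence inherited with it and the action of Cre on Hdac3 cannot be told apart. Whether replicates came from separate animals is not stated in the labels, so each p-value measures the spread between these libraries, which may be technical.

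Lyz2 encodes lysozyme M, the bacterial cell wall-cleaving enzyme made in large amounts by macrophages and granulocytes, and it is widely used to drive Cre in myeloid cells. In the commonly used Lyz2-Cre line the Cre coding sequence was placed at the start codon of Lyz2, so the modified allele makes Cre in place of lysozyme M. The labels do not say which line was used or whether the mice carried 1 or 2 modified alleles. Lyz1 encodes lysozyme P, known from Paneth cells of the small intestine, and arose with Lyz2 by gene duplication. The remaining neighbours have unrelated roles and include nuclear pore, mRNA decay, chromatin, vesicle traffic and signalling genes.

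The promoters of both lysozyme genes are shown because Lyz2 carries Cre and Lyz1 was the member with the firmest genotype difference. The sequences come from RefSeq on build GRCm38.p6, minus strand, 5′ to 3′, and end at the base before the transcription start that RefSeq annotates. The Lyz2 window is chr10:117282273-117282522 and the Lyz1 window is chr10:117292869-117293118. The deposited gene span of Lyz2 reaches to 117282321, so the downstream end of its window lies inside that span. The Lyz1 span ends at 117292868, outside its window. Both windows are 250 bases long, and in a global alignment with gaps 200 bases of each (80%) were aligned to the same base. The 50 capitals in each mark 48 bases aligned to a different base and 2 that face a gap.
Lyz2: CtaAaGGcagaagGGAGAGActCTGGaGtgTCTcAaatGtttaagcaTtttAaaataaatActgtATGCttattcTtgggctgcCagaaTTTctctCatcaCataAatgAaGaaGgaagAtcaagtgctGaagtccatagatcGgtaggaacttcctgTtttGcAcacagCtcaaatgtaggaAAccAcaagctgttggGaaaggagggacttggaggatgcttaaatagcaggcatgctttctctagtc
Lyz1: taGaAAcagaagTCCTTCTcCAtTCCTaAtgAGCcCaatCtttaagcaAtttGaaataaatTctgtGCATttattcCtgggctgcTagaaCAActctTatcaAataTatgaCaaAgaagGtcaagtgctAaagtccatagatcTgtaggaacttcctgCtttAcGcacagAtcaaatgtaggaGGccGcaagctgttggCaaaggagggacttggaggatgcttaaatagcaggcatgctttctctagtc
Most of the capitals lie in the upstream part, and the last bases before the start are the same in both genes. Long identical stretches between the transcripts were few. In the GENCODE M21 annotation the longest run shared by the Lyz1 transcript (1263 bases) and the Lyz2 transcript (1316 bases) was 118 bases. Of the 50-base windows of Lyz1, 195 of 1214 (16.1%) also occurred in Lyz2, against 0 of 1114 windows of 150 bases. The read length is not given in the sources used here, so how many reads the authors' counting could have placed on the wrong lysozyme gene was not tested.

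The libraries held 16553432 to 18706990 counts each, and a count of 0 allowed a level of up to 0.160 to 0.181 counts per 1e6 counts (CPM) by library. CPM here is scaled by edgeR's TMM factors. Over these 12 libraries 7 macrophage markers (Adgre1, Csf1r and others, without Lyz2) summed to 5416 to 5869 CPM in untreated Lyz2-Cre cells and 4832 to 5472 CPM in untreated Hdac3f/f cells. Hdac3, the floxed gene, was 34.9 ± 1.75 CPM in untreated Lyz2-Cre cells and 38.4 ± 1.86 CPM in untreated Hdac3f/f cells (SD, n = 3 each), a log2 difference of -0.14 ± 0.09 (SE, adjusted p = 0.352, edgeR quasi-likelihood test). With LPS it was 37.0 ± 2.36 CPM in Lyz2-Cre cells and 39.4 ± 1.08 CPM in Hdac3f/f cells (log2 difference -0.09, adjusted p = 0.473, and 0.17 on the scale of library totals). The Hdac3 count covers the whole gene, not the floxed part alone, so it is no check of recombination. Stromal markers (Col1a1, Col1a2, Col3a1 and Dcn) summed to 14.999, 126 and 38.3 CPM in the untreated Lyz2-Cre libraries and to 1330, 277 and 437 CPM in the untreated Hdac3f/f libraries. With LPS the same sums were 19.8, 22.0 and 23.0 CPM in Lyz2-Cre cells, against 768, 1096 and 1617 CPM in Hdac3f/f cells. In bulk libraries fewer cells of a type and less RNA per cell cannot be told apart. Mast cell and basophil markers (Fcer1a, Mcpt8, Cpa3 and Ms4a2) were all called higher in Lyz2-Cre cells at both treatments. They summed to 59.9, 39.2 and 62.7 CPM in untreated Lyz2-Cre cells, against 24.8, 29.0 and 27.2 CPM in untreated Hdac3f/f cells. With LPS they summed to 64.8, 50.5 and 78.5 CPM in Lyz2-Cre cells, against 27.0, 30.2 and 33.2 CPM in Hdac3f/f cells. Of the 7 macrophage markers, 1 was called higher and 1 lower in Lyz2-Cre cells without LPS, and 3 higher and 3 lower with LPS. The 9 neutrophil markers (S100a8, Ngp, Mmp8 and others) summed to 127 to 208 CPM in untreated Lyz2-Cre cells. In untreated Hdac3f/f cells they summed to 233 to 409 CPM, and with LPS the sums overlapped. Of 8 tested, 1 was called higher and 2 lower in Lyz2-Cre cells without LPS, and 1 higher with LPS. One library, untreated Lyz2-Cre replicate 1, stood apart in Lyz2 itself, as described next. Within its group it was also lowest in most neutrophil markers, such as S100a8 (3.74 against 16.5 and 16.6 CPM) and Ngp (4.42 against 24.7 and 23.5 CPM). In Mmp8 alone of these markers it was highest, at 70.7 against 47.6 and 35.5 CPM.

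Lyz2 (ENSMUSG00000069516, mm10 chromosome 10, 117277331 to 117282321, minus strand) was lower in every Lyz2-Cre library than in any Hdac3f/f library at the same treatment. It measured 31.0, 5176 and 5632 CPM in untreated Lyz2-Cre replicates 1 to 3, against 9310, 10161 and 11979 CPM in untreated Hdac3f/f cells. With LPS it measured 6085, 6244 and 7721 CPM in Lyz2-Cre cells, against 10501, 12340 and 11242 CPM in Hdac3f/f cells. The groups did not overlap at either treatment. As a share of the mean of the equally treated Hdac3f/f libraries, untreated Lyz2-Cre replicate 1 was at 0.295%, while the other 5 Lyz2-Cre libraries lay between 49.4% and 68.0%. Replicate 1 held 638 Lyz2 counts, 0.0036% of its library, 175-fold below the mean of the other 2 untreated Lyz2-Cre libraries in CPM.

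That library did not stand apart in most of the neighbourhood. Over the other 29 members with at least 1 CPM on average in untreated Lyz2-Cre cells, the median log2 ratio of replicate 1 to the mean of replicates 2 and 3 was 0.0025, and 27 lay within 0.5. The 2 exceptions were Mdm1, which encodes a microtubule-binding protein of centrioles, at 0.83, and Ptprb, which had no count in replicate 1. Lyz1 was the lowest of the rest, at -0.20.

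In the fit of all 12 libraries the genotype difference of Lyz2 was -1.54 ± 0.96 on the log2 scale without LPS (SE, adjusted p = 0.307). With LPS it was -0.77 ± 0.94 (adjusted p = 0.557), so neither passed the test. Without untreated Lyz2-Cre replicate 1 the differences were -0.96 (adjusted p = 0.00648) and -0.76 (adjusted p = 0.00249), and both passed. The adjusted p ran from 0.00196 to 0.512 without LPS and from 0.00138 to 0.708 with LPS over all alternatives. The values per library, rather than the fitted test, therefore carry the description of this gene. Its LPS response was 0.89 ± 0.94 in Lyz2-Cre cells (adjusted p = 0.453) and 0.12 ± 0.93 in Hdac3f/f cells (adjusted p = 0.927).

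**Figure D1:**
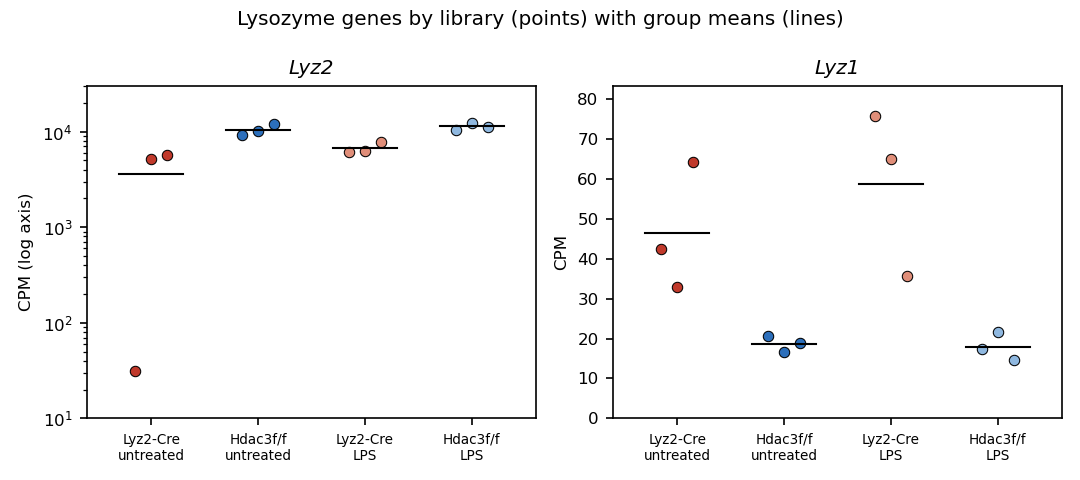
CPM of Lyz2 (left, log axis) and Lyz1 (right, linear axis from 0) in each of the 12 libraries, with points for libraries and lines for group means. Lyz2 was lower in all Lyz2-Cre libraries, with 1 untreated library at 31.0 CPM, and Lyz1 was higher in all of them, at 32.8 to 75.7 CPM against 14.7 to 21.7 CPM in Hdac3f/f cells.

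Lyz1 (ENSMUSG00000069515, mm10 chromosome 10, 117287797 to 117292868, minus strand) lies immediately beside Lyz2 and ran the other way. It measured 42.3, 32.8 and 64.4 CPM in untreated Lyz2-Cre cells, against 20.5, 16.6 and 18.9 CPM in untreated Hdac3f/f cells. With LPS it measured 75.7, 64.9 and 35.8 CPM in Lyz2-Cre cells, against 17.4, 21.7 and 14.7 CPM in Hdac3f/f cells. All Lyz2-Cre libraries were above all Hdac3f/f libraries at either treatment. The log2 difference in untreated cells was 1.32 ± 0.28 (SE, adjusted p = 0.0110) and that in LPS-treated cells 1.71 ± 0.28 (adjusted p = 0.00105), both by edgeR's quasi-likelihood test. Both calls held under the 20 alternatives, with adjusted p up to 0.0484 without LPS and up to 0.00738 with LPS. The size of the difference did not differ detectably between treatments (interaction 0.40 ± 0.39, adjusted p = 0.593). Lyz1 was the single member called between genotypes at both treatments. By group, the mast cell and basophil markers moved the same way as Lyz1. Their sum ranked the untreated Lyz2-Cre libraries as Lyz1 did, but with LPS it was highest, at 78.5 CPM, in replicate 3, where Lyz1 was lowest. Sums of 5 dendritic cell markers (Flt3, Zbtb46, Ccr7, Xcr1 and Siglech) were also higher in Lyz2-Cre cells at both treatments, with 1 of 4 tested called higher at each. The part of these markers in the Lyz1 difference was not tested.

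Lyz1 remained a small part of the lysozyme signal wherever Lyz2 was abundant. Per kilobase of gene length (RPKM), Lyz1 averaged 36.8 in untreated Lyz2-Cre cells and 14.8 in untreated Hdac3f/f cells, beside 2746 and 7966 RPKM for Lyz2 in the same groups. With LPS Lyz1 averaged 46.6 RPKM in Lyz2-Cre cells and 14.2 RPKM in Hdac3f/f cells, beside 5078 and 8633 RPKM for Lyz2. Of the counts on both genes, Lyz1 held 57.8% in untreated Lyz2-Cre replicate 1 (exact Clopper-Pearson 95% interval 55.2% to 60.3%). In the other 5 Lyz2-Cre libraries its part was 0.461% to 1.23%, and in the 6 Hdac3f/f libraries it was 0.131% to 0.220%. These intervals cover counting error alone. Lyz1 was thus high in the library with the fewest Lyz2 counts as well as in libraries with many, at 42.3 CPM in replicate 1 and at 32.8 and 64.4 CPM in replicates 2 and 3.

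Outside the lysozymes, Yeats4 alone among the tested neighbours passed the test between genotypes in resting macrophages. Not passing is no evidence of equal levels. Of the 66 members, 35 passed the filter on low counts. Without LPS 2 of these 35 differed between genotypes (adjusted p under 0.05), Lyz1 higher and Yeats4 lower in Lyz2-Cre cells. That is 5.71% of the tested members, beside 11.8% of all 14286 tested genes (5.13% higher and 6.66% lower) and 13.6% of the 560 tested protein-coding genes of the rest of chromosome 10. At an unadjusted p under 0.05 there were 8 members (22.9%), beside 28.5% of all tested genes. The median log2 difference was 0.08 over the members and 0.03 over all tested genes, and the median size without its sign was 0.20 and 0.27. Leaving out 1 library changed the count to 4 without untreated Hdac3f/f replicate 1 (17.3% of all tested genes called in the same fit) or Hdac3f/f LPS replicate 1 (15.2%). It changed to 1, Lyz1, without untreated Hdac3f/f replicate 2 or 3, untreated Lyz2-Cre replicate 2 or 3, or Lyz2-Cre LPS replicate 2, fits in which 5.30% to 9.76% of all tested genes were called.

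Yeats4, the nearest tested gene on the side away from Lyz1, encodes GAS41, a reader of acetylated histones found in histone acetyltransferase and histone-exchange complexes. It measured 22.0, 22.6 and 24.6 CPM in untreated Lyz2-Cre cells, against 27.0, 30.1 and 36.6 CPM in untreated Hdac3f/f cells, without overlap. The log2 difference was -0.44 ± 0.13 (SE, adjusted p = 0.0424). The call was lost without untreated Hdac3f/f replicate 2 or 3, without any 1 of the untreated Lyz2-Cre libraries and without Lyz2-Cre LPS replicate 2, with adjusted p between 0.0543 and 0.180 and differences between -0.49 and -0.31. It was also lost in a fit of the 2 untreated groups alone (adjusted p = 0.0521). With LPS Yeats4 averaged 29.7 ± 2.24 CPM in Lyz2-Cre cells and 31.9 ± 3.06 CPM in Hdac3f/f cells (adjusted p = 0.571).

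The close neighbours are the 4 tested members nearest to Lyz2 on each side. Besides Lyz1 and Yeats4, Nup107 on the Lyz1 side passed the test with LPS and is described below. The rest did not pass at either treatment in the fit of all 12 libraries. Frs2, an adaptor of fibroblast growth factor receptors, differed by 0.20 without LPS and 0.24 with LPS on the log2 scale. Cct2, a subunit of the cytosolic chaperonin, differed by -0.14 and 0.16, and Rab3ip, which activates the GTPase Rab8, by -0.001 and -0.28. On the Lyz1 side, Cpsf6, a factor of mRNA 3′ end processing, differed by 0.08 and 0.29, and Slc35e3, a putative solute carrier, by 0.29 and -0.25. Across these 5 genes the adjusted p ran from 0.120 to 0.999 in that fit. Rab3ip, Cct2, Frs2 and Cpsf6 passed with LPS when Hdac3f/f LPS replicate 1 was left out (adjusted p of 0.0205 to 0.0369). In that fit 40.8% of all tested genes were called. Cct2, Frs2 and Cpsf6 also passed with LPS by library totals alone (adjusted p of 0.0195 to 0.046, with 40.5% of all tested genes called).

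Several uncalled members leaned towards Lyz2-Cre cells without LPS. Tbk1 encodes the kinase that phosphorylates IRF3 downstream of Toll-like receptors and nucleic acid sensors, and measured 83.4, 89.2 and 85.2 CPM in untreated Lyz2-Cre cells, against 74.1, 58.8 and 53.7 CPM in untreated Hdac3f/f cells. The libraries did not overlap, but its log2 difference of 0.47 ± 0.16 missed the threshold (adjusted p = 0.0838). Rap1b, a GTPase of integrin activation and adhesion, averaged 371 ± 10.8 CPM in Lyz2-Cre cells and 304 ± 23.2 CPM in Hdac3f/f cells (log2 difference 0.29, adjusted p = 0.0681). Xpot, the export receptor of transfer RNA, averaged 75.7 ± 1.57 CPM in Lyz2-Cre cells and 59.96 ± 2.89 CPM in Hdac3f/f cells (log2 difference 0.34, adjusted p = 0.0691). Mdm1 averaged 4.67 ± 1.74 CPM in Lyz2-Cre cells and 2.44 ± 0.447 CPM in Hdac3f/f cells (log2 difference 0.93, adjusted p = 0.0772).

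**Figure D2:**
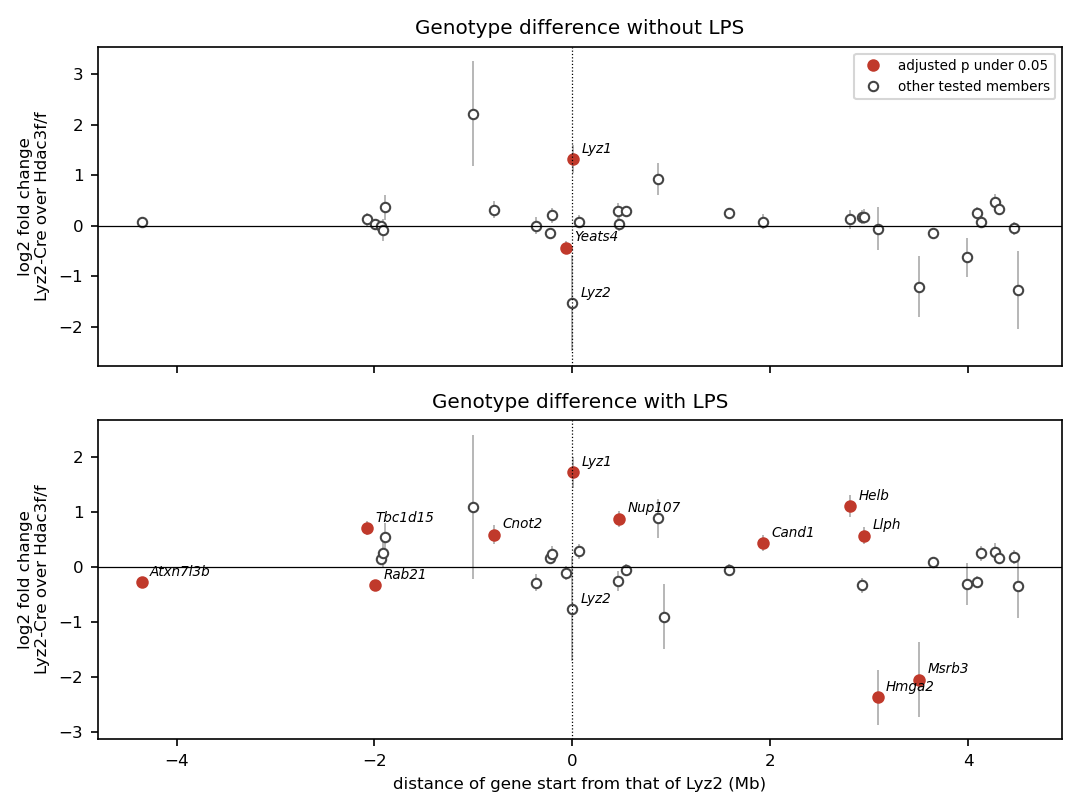
Log2 difference of Lyz2-Cre over Hdac3f/f (bars, SE) against the distance of each tested member's start from that of Lyz2 in Mb, without LPS (top) and with LPS (bottom). Filled points passed an adjusted p of 0.05. Without LPS these were Lyz1 and Yeats4, both beside Lyz2, and with LPS the 11 called members were spread over the window. Il22 had at most 1 count in untreated groups and is left out of the upper panel.

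With LPS more neighbours separated by genotype, as did more genes elsewhere. The share called was close to that of the genome. In LPS-treated cells 11 of the 35 tested members were called, 7 higher and 4 lower in Lyz2-Cre cells, which is 31.4% of the members, beside 32.6% of all tested genes (15.7% higher and 16.9% lower) and 33.6% of those on the rest of chromosome 10. At an unadjusted p under 0.05 there were 15 members (42.9%), beside 44.3% of all tested genes. The median log2 difference was 0.16 over the members and 0.02 over all tested genes. Scaling by library totals alone moved the median of all tested genes in this contrast by 0.27, to 0.29. Then 17 members were called higher and 1 lower, with 40.5% of all tested genes called, so directions are stated relative to the TMM scale. The count was 19 without Hdac3f/f LPS replicate 1 (40.8% of all tested genes called) and 6 without replicate 3 of that group (20.2%). It was 5 without Lyz2-Cre LPS replicate 1 (19.0%) and 7 without replicate 2 (20.9%).

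Among genes of nuclear transport and nucleic acid metabolism, Nup107 and Helb were higher in LPS-treated Lyz2-Cre cells. Nup107 encodes a scaffold subunit of the nuclear pore (ENSMUSG00000052798, chromosome 10, 117750621 to 117792705, minus strand). It measured 10.98, 12.8 and 9.96 CPM in Lyz2-Cre cells with LPS, against 6.87, 5.22 and 6.24 CPM in Hdac3f/f cells with LPS. The groups did not overlap, and the log2 difference was 0.88 ± 0.15 (SE, adjusted p = 0.00121). Without LPS Nup107 averaged 12.5 ± 0.0869 CPM in Lyz2-Cre cells and 12.1 ± 1.29 CPM in Hdac3f/f cells (adjusted p = 0.871). Helb encodes a DNA helicase that acts in replication stress and limits DNA end resection (ENSMUSG00000020228, chromosome 10, 120083608 to 120112987, minus strand). With LPS it measured 21.0, 21.3 and 16.5 CPM in Lyz2-Cre cells, against 12.1, 6.54 and 8.48 CPM in Hdac3f/f cells. Again the groups did not overlap, with a log2 difference of 1.11 ± 0.19 (SE, adjusted p = 0.00149). Without LPS it averaged 23.3 ± 2.08 CPM in Lyz2-Cre cells and 21.4 ± 2.39 CPM in Hdac3f/f cells (adjusted p = 0.682).

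Of the vesicle traffic genes, Tbc1d15 was higher and Rab21 lower. Tbc1d15, a GTPase-activating protein of Rab7 on late endosomes and mitochondria, measured 33.1, 29.0 and 28.5 CPM in Lyz2-Cre cells with LPS, against 21.6, 17.1 and 16.7 CPM in Hdac3f/f cells with LPS. Its groups did not overlap, and the log2 difference was 0.71 ± 0.13 (SE, adjusted p = 0.00173). Rab21, a GTPase of early endosomes and integrin traffic, measured 110, 117 and 114 CPM in Lyz2-Cre cells with LPS, against 132, 147 and 151 CPM in Hdac3f/f cells with LPS, without overlap. Its log2 difference was -0.33 ± 0.09 (SE, adjusted p = 0.0119), and -0.06 (adjusted p = 0.628) by library totals alone. The Rab21 call did not hold without Hdac3f/f LPS replicate 3 (adjusted p = 0.0616) or Lyz2-Cre LPS replicate 1 (adjusted p = 0.0620), without the low-count filter (adjusted p = 0.0596), or in a fit of the 2 LPS groups alone (adjusted p = 0.0556).

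Cnot2, Llph and Cand1 were higher by less. Cnot2, a subunit of the CCR4-NOT complex that removes poly(A) tails, measured 47.2, 44.0 and 39.2 CPM in Lyz2-Cre cells with LPS, against 38.0, 23.6 and 25.0 CPM in Hdac3f/f cells with LPS (log2 difference 0.59 ± 0.17, SE, adjusted p = 0.0203). Llph measured 37.5, 31.1 and 27.8 CPM in Lyz2-Cre cells with LPS, against 26.5, 20.2 and 18.3 CPM in Hdac3f/f cells with LPS (log2 difference 0.57 ± 0.15, SE, adjusted p = 0.0133). In both genes Hdac3f/f LPS replicate 1 was the highest of its group and came close to the lowest Lyz2-Cre library without overlapping it. Cand1, the exchange factor of cullin ubiquitin ligases, measured 59.1, 61.0 and 47.2 CPM in Lyz2-Cre cells with LPS, against 50.8, 35.8 and 37.0 CPM in Hdac3f/f cells with LPS. Here the groups overlapped, and the log2 difference was 0.44 ± 0.15 (SE, adjusted p = 0.0370).

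These 3 calls changed with single libraries. Without Hdac3f/f LPS replicate 3 or Lyz2-Cre LPS replicate 1 all 3 were lost, with adjusted p between 0.0569 and 0.122. Without Hdac3f/f LPS replicate 2 or Lyz2-Cre LPS replicate 2 Cnot2 (adjusted p = 0.0777 and 0.0564) and Cand1 (0.123 and 0.129) were lost, and the Cand1 call did not hold without untreated Lyz2-Cre replicate 2 or 3 (0.0508 each) or in a fit of the 2 LPS groups alone (0.0739). Lyz1, Nup107, Helb, Tbc1d15 and Hmga2 kept their calls with LPS under all 20 alternatives.

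Atxn7l3b, a paralog of a deubiquitinase cofactor of the SAGA complex, was lower by a small amount. It measured 42.6, 43.2 and 43.0 CPM in Lyz2-Cre cells with LPS, against 56.9, 49.1 and 50.3 CPM in Hdac3f/f cells with LPS, without overlap. Its log2 difference was -0.28 ± 0.10 (SE, adjusted p = 0.0403), and -0.01 (adjusted p = 0.932) by library totals alone. The call was lost without any 1 of 9 libraries, with adjusted p of 0.0507 to 0.114. These 9 were all 3 of each Lyz2-Cre group, Hdac3f/f LPS replicates 1 and 3, and untreated Hdac3f/f replicate 2. It was also lost without the low-count filter (adjusted p = 0.171), in a fit of the 2 LPS groups alone (0.120), and with untreated replicate 1 of both genotypes left out together (0.0654).

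Hmga2 and Msrb3 were lower in LPS-treated Lyz2-Cre cells at very low levels. Hmga2 encodes an architectural chromatin protein typical of embryonic and mesenchymal cells (ENSMUSG00000056758, chromosome 10, 120361275 to 120476469, minus strand). It measured 0.241, 0.289 and 0.188 CPM in Lyz2-Cre cells with LPS, against 1.25, 1.25 and 1.31 CPM in Hdac3f/f cells with LPS. The groups did not overlap, and the log2 difference was -2.37 ± 0.49 (SE, adjusted p = 0.00396). Without LPS Hmga2 measured 0.631, 1.07 and 0.249 CPM in Lyz2-Cre cells, against 0.563, 0.729 and 0.766 CPM in Hdac3f/f cells, and the groups overlapped (log2 difference -0.06, adjusted p = 0.939). Msrb3, which reduces oxidised methionine in proteins, measured 0.482, 0.346 and 0.125 CPM in Lyz2-Cre cells with LPS, against 1.25, 1.09 and 1.67 CPM in Hdac3f/f cells with LPS. Its log2 difference was -2.04 ± 0.68 (SE, adjusted p = 0.0375). The Msrb3 call was lost without Hdac3f/f LPS replicate 2 or 3 or any 1 of the Lyz2-Cre LPS libraries (adjusted p of 0.0602 to 0.111), and by library totals alone (adjusted p = 0.0698).

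Stromal markers moved the same way. All 4 of the stromal markers were called lower in Lyz2-Cre cells with LPS and all 4 without LPS, and their sums with LPS were 19.8 to 23.0 CPM in Lyz2-Cre cells against 768 to 1617 CPM in Hdac3f/f cells. Their part in the Hmga2 and Msrb3 differences was not tested. Without LPS the stromal sums did not overlap between genotypes, while both Hmga2 and Msrb3 did. The untreated Hdac3f/f libraries held 13, 15 and 15 Hmga2 counts, too few to rank them. Without LPS Msrb3 was 0.146, 0.844 and 0.646 CPM in Lyz2-Cre cells, against 2.34, 0.584 and 0.869 CPM in Hdac3f/f cells. Wif1, a secreted Wnt inhibitor that did not pass the filter, had 0 counts in all 6 Lyz2-Cre libraries, against 6, 0 and 3 counts in the untreated and 1, 0 and 2 counts in the LPS-treated Hdac3f/f libraries. At either treatment 1 Hdac3f/f library was also at 0, and the difference was not tested.

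Ptprb, a receptor phosphatase of endothelial cells, was not called between genotypes. It measured 0, 3.64 and 2.83 CPM in untreated Lyz2-Cre cells, against 1.04, 0.243 and 0.0511 CPM in untreated Hdac3f/f cells (log2 difference 2.22 ± 1.03, SE, adjusted p = 0.177). Cdh5, which encodes the endothelial cadherin, measured 2.14, 32.4 and 24.8 CPM in the same untreated Lyz2-Cre libraries, against 20.4, 2.24 and 1.18 CPM in the untreated Hdac3f/f libraries. Both genes were high in Lyz2-Cre replicates 2 and 3 and in Hdac3f/f replicate 1. Among untreated libraries the endothelial markers Tek, Emcn and Egfl7 were also highest in these. Pecam1, another of these markers, was not, at 25.6 CPM in Lyz2-Cre replicate 1 and 23.3 CPM in Hdac3f/f replicate 1. The 6 endothelial markers, all of them detected in every group and listed after the Ptprb values were seen, summed to 99.5, 181 and 132 CPM in untreated Lyz2-Cre cells, against 86.8, 35.0 and 30.2 CPM in untreated Hdac3f/f cells. Kdr, an endothelial receptor of vascular growth factor and the most abundant of the 6, did not follow Ptprb, at 70.3, 82.0 and 50.5 CPM in untreated Lyz2-Cre cells, against 32.1, 21.3 and 19.3 CPM in untreated Hdac3f/f cells. With LPS the endothelial sums were 84.4 to 111 CPM in Hdac3f/f cells, where Ptprb was 0.139 to 0.389 CPM. Most of these sums was Kdr, at 68.8 to 78.8 CPM, while Emcn was 0.779 to 1.74 CPM and Cdh5 5.53 to 12.4 CPM. The part of endothelial markers in the Ptprb values was not tested.

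**Figure D3:**
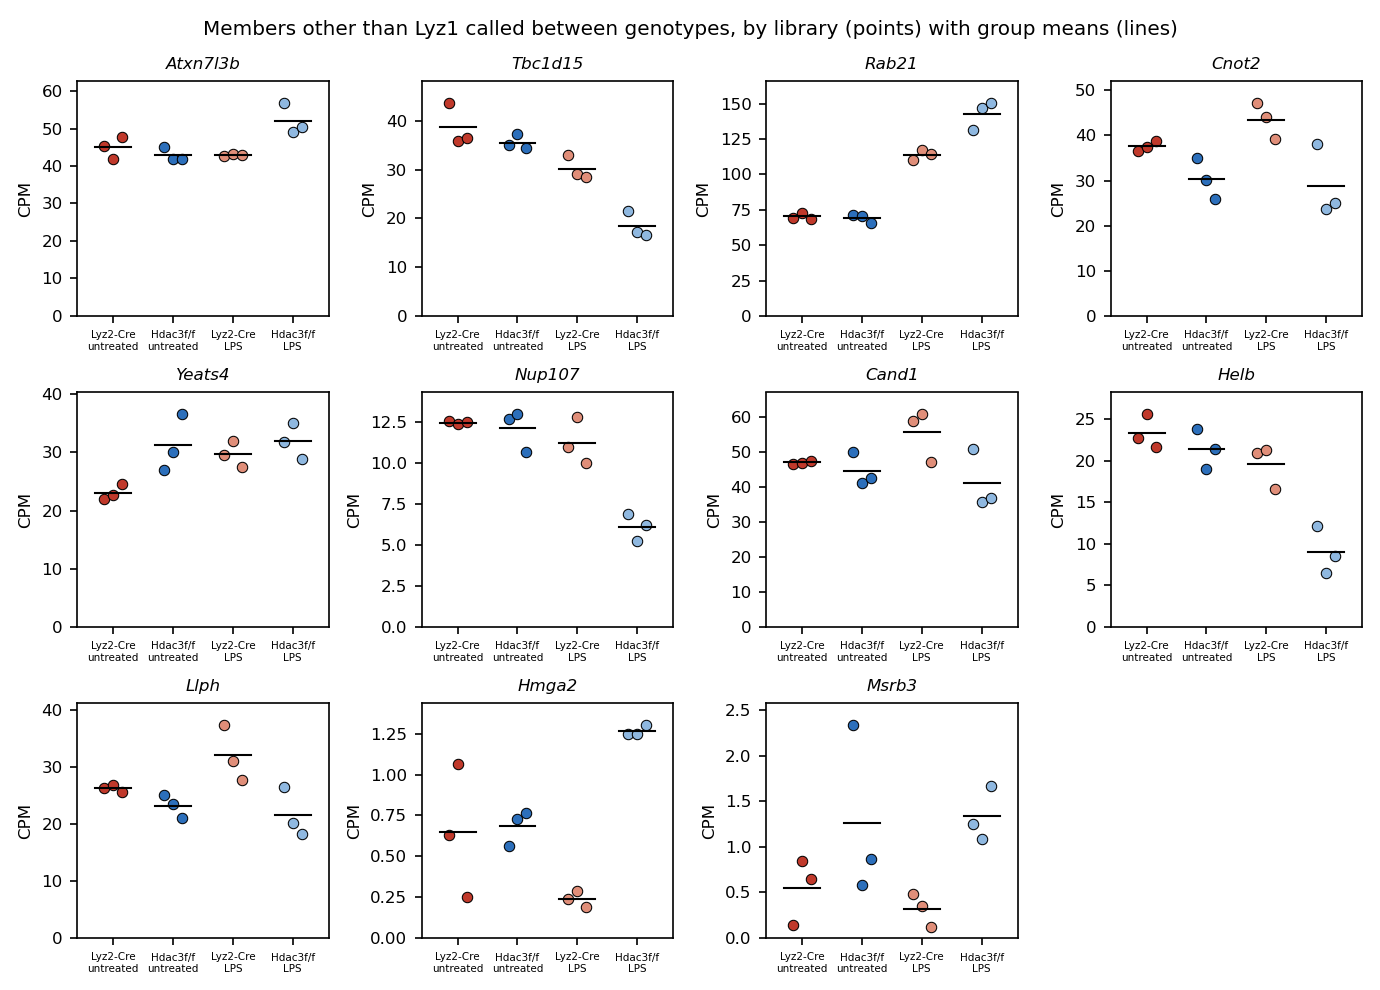
CPM by library (points) and group mean (lines), on linear axes from 0, for the 11 members other than Lyz1 called between genotypes, in map order. Nup107, Helb and Tbc1d15 were lower in LPS-treated Hdac3f/f cells than in the other groups, and Hmga2 with LPS was 0.188 to 0.289 CPM in Lyz2-Cre cells against 1.25 to 1.31 CPM in Hdac3f/f cells.

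**Figure D4:**
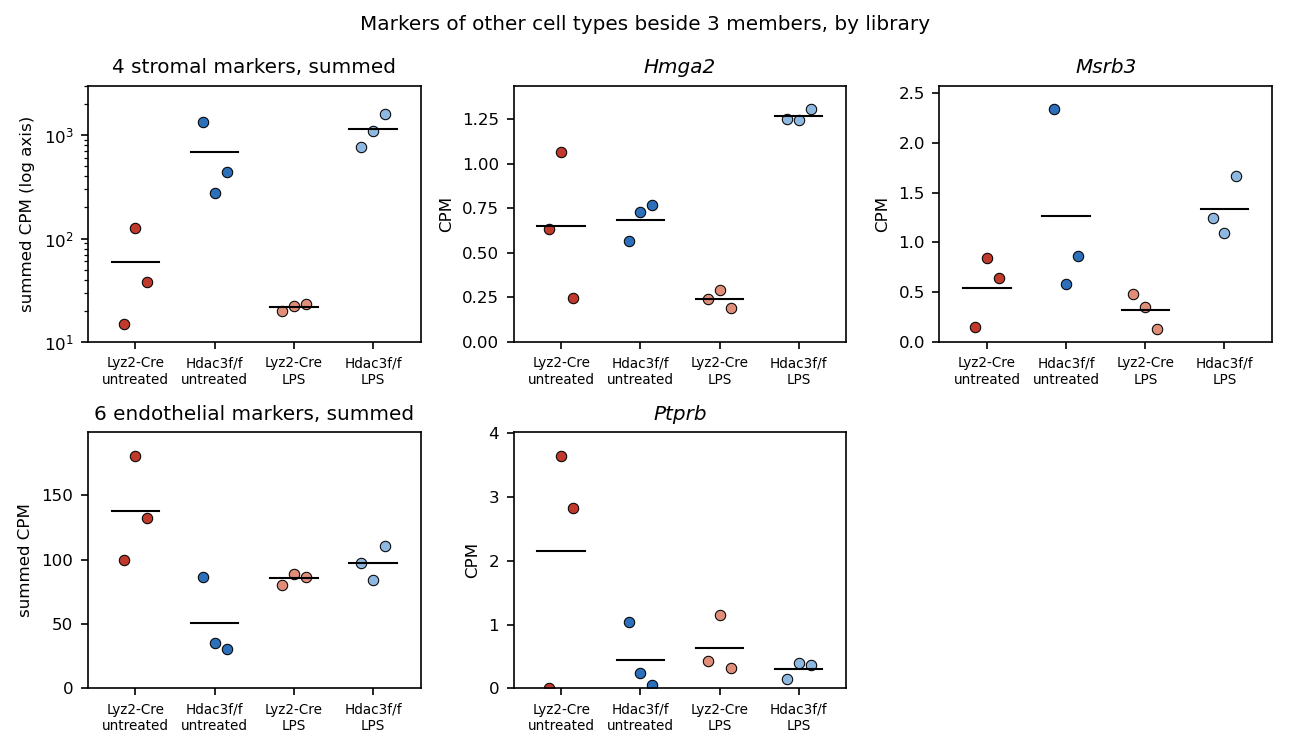
Summed CPM of 4 stromal markers (log axis) and 6 endothelial markers beside CPM of Hmga2, Msrb3 and Ptprb, by library (points) with group means (lines). The stromal sums were lower in Lyz2-Cre cells at both treatments, while Ptprb was highest in the 2 untreated Lyz2-Cre libraries with the highest endothelial sums. It was 0.139 to 0.389 CPM in LPS-treated Hdac3f/f cells, whose endothelial sums were 84.4 to 111 CPM, of which Kdr was 68.8 to 78.8 CPM.

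By distance, the 2 members called without LPS lay beside Lyz2, and the 11 called with LPS were spread over the window. The bins are small, and Yeats4, 1 of those 2, lost its call under 7 of 20 alternatives. Without LPS the called members were 2 of 12 (16.7%) within 1 Mb of the Lyz2 start. They were 0 of 8 between 1 and 2.5 Mb and 0 of 14 beyond 2.5 Mb, Lyz2 itself left out. Of all tested genes 11.8% were called without LPS. With LPS the called members were 3 of 12 (25%), 3 of 8 (37.5%) and 5 of 14 (35.7%), beside 32.6% of all tested genes. The median size of the log2 difference in the same 3 bins was 0.29, 0.11 and 0.18 without LPS, and 0.29, 0.38 and 0.29 with LPS. Across these 34 genes Spearman's rho between size and distance was -0.0729 without LPS and -0.0160 with LPS, given as a description, since neighbouring genes share libraries and are not replicates. In the whole window the median size was 0.20 without LPS and 0.31 with LPS, against 0.26 and 0.39 on the rest of the chromosome. Among the 35 members, 22 (62.9%) had the same sign in both genotype contrasts, beside 67.6% of all tested genes.

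Of the tested members, 4 responded to LPS to a different extent in the genotypes. The interaction (the Lyz2-Cre response less the Hdac3f/f response) was called for 4 of 35 members (11.4%), beside 8.12% of all tested genes (2.58% higher and 5.54% lower) and 8.75% of those on the rest of chromosome 10, and 10 members (28.6%) had an unadjusted p under 0.05, beside 22.7% of all tested genes. In response to LPS, Nup107 had a log2 change of -0.15 ± 0.14 in Lyz2-Cre cells (SE, adjusted p = 0.401), against a change of -0.98 ± 0.15 in Hdac3f/f cells (adjusted p = 7.29e-05). The interaction was 0.84 ± 0.20 (adjusted p = 0.0258). Helb had a change of -0.25 ± 0.18 in Lyz2-Cre cells (adjusted p = 0.273), against a change of -1.24 ± 0.19 in Hdac3f/f cells (adjusted p = 1.07e-04), with an interaction of 0.99 ± 0.27 (adjusted p = 0.0406). Both genes thus fell with LPS in Hdac3f/f cells, and the change in Lyz2-Cre cells was smaller by the interaction test.

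Hmga2 fell by 1.42 ± 0.50 in Lyz2-Cre cells (SE, adjusted p = 0.0306), against a change of 0.88 ± 0.42 in Hdac3f/f cells (adjusted p = 0.0863), with an interaction of -2.30 ± 0.66 (adjusted p = 0.0494). The stromal sums given above were lower in every Lyz2-Cre library, and their part in this result was not tested.

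None of the 4 interaction calls held under every alternative. Leaving out 1 library at a time gave 0 to 7 called members. There were 7 without Hdac3f/f LPS replicate 1 (13.6% of all tested genes called), and 0 in fits with 3.61% to 4.92% of all tested genes called, without untreated Hdac3f/f replicate 2, Hdac3f/f LPS replicate 3, untreated Lyz2-Cre replicate 1 or 2, or Lyz2-Cre LPS replicate 1 or 2. Untreated Hdac3f/f replicates 1 and 3, Hdac3f/f LPS replicate 2 and untreated Lyz2-Cre replicate 3 each left 1 call when left out. In those fits 4.58% to 8.99% of all tested genes were called. Leaving out Lyz2-Cre LPS replicate 3 left 2 calls (6.29%). The estimates described above kept their sign in each of these fits, at 0.74 to 0.95 for Nup107, 0.82 to 1.27 for Helb and -2.68 to -1.74 for Hmga2. The adjusted p over all alternatives reached 0.0774 for Nup107, 0.0955 for Helb and 0.147 for Hmga2. The fall of Hmga2 with LPS in Lyz2-Cre cells was itself lost without any 1 of the Lyz2-Cre LPS libraries and without untreated Lyz2-Cre replicate 1 or 2 (adjusted p of 0.0557 to 0.194).

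More members were called for LPS than for genotype. In Lyz2-Cre cells 21 of 35 members were called, 13 up and 8 down (60%, beside 52.9% of all tested genes, 25.2% up and 27.7% down), and in Hdac3f/f cells 20 were, 12 up and 8 down (57.1%, beside 60.1%, 28% up and 32.1% down). By library totals alone the split was 7 up and 12 down in Lyz2-Cre cells and 7 up and 19 down in Hdac3f/f cells. In those fits 60% and 72.3% of all tested genes were called. The median of all tested genes moved by -0.38 and -0.64, so these directions too are relative to the TMM scale. The 2 responses rest on separate libraries. In both genotypes 11 members rose (31.4%, beside 21.4% of all tested genes) and 6 fell (17.1%, beside 23.1%). Another 4 were called in Lyz2-Cre cells alone (11.4%, beside 8.08%) and 3 in Hdac3f/f cells alone (8.57%, beside 15.2%). None was called in opposite directions, beside 0.392% of all tested genes.

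The largest rises were shared. Il22, which encodes a cytokine of lymphocytes acting on epithelia, had 7, 9 and 16 counts in Lyz2-Cre cells with LPS and 1 count over the 3 untreated Lyz2-Cre libraries, a ratio of 40.6 after scaling (95% counting interval 6.78 to 1652). In Hdac3f/f cells it had 16, 6 and 28 counts with LPS and 0 untreated, at least 25.7-fold higher, with 3 counts over the group as the floor. Srgap1, a GTPase-activating protein of Slit-Robo signalling, rose by 3.29 ± 0.71 in Lyz2-Cre cells and 2.36 ± 0.64 in Hdac3f/f cells on the log2 scale (SE). It averaged 2.81 ± 0.302 CPM with LPS and 0.275 ± 0.264 CPM without in Lyz2-Cre cells. Rab3ip rose by 1.93 ± 0.16 in Lyz2-Cre cells and 2.21 ± 0.16 in Hdac3f/f cells. Dyrk2, a kinase that phosphorylates p53, rose by 1.60 ± 0.10 (adjusted p = 2.39e-08) in Lyz2-Cre cells and 1.89 ± 0.10 (adjusted p = 3.67e-09) in Hdac3f/f cells, and averaged 264 ± 10.6 and 273 ± 21.3 CPM with LPS in these genotypes.

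Signalling members also rose in both genotypes. Rap1b rose by 0.93 in Lyz2-Cre cells and 1.26 in Hdac3f/f cells (log2). Tbk1 rose by 0.73 in Lyz2-Cre cells and 0.93 in Hdac3f/f cells. Tmbim4, a Golgi protein that protects cells from apoptosis, rose by 0.99 in Lyz2-Cre cells and 1.49 in Hdac3f/f cells. The interaction was not called for any of these 3 (adjusted p = 0.152, 0.669 and 0.144).

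Rassf3, a Ras-association domain protein, had the largest fall in both genotypes, by 1.89 ± 0.13 in Lyz2-Cre cells (SE, adjusted p = 8.31e-08) and 2.06 ± 0.13 in Hdac3f/f cells (adjusted p = 2.81e-08). It averaged 15.5 ± 0.513 CPM in Lyz2-Cre cells and 13.0 ± 1.71 CPM in Hdac3f/f cells with LPS. Tmem19, which encodes a membrane protein, fell by 0.93 in Lyz2-Cre cells and 1.09 in Hdac3f/f cells. Slc35e3 fell by 1.12 in Lyz2-Cre cells (adjusted p = 1.34e-04) and 0.58 in Hdac3f/f cells (adjusted p = 0.0113). Thap2, a zinc-finger protein of the THAP family, fell by 0.91 in Lyz2-Cre cells (adjusted p = 0.00377) and 1.25 in Hdac3f/f cells (adjusted p = 3.82e-04).

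**Figure D5:**
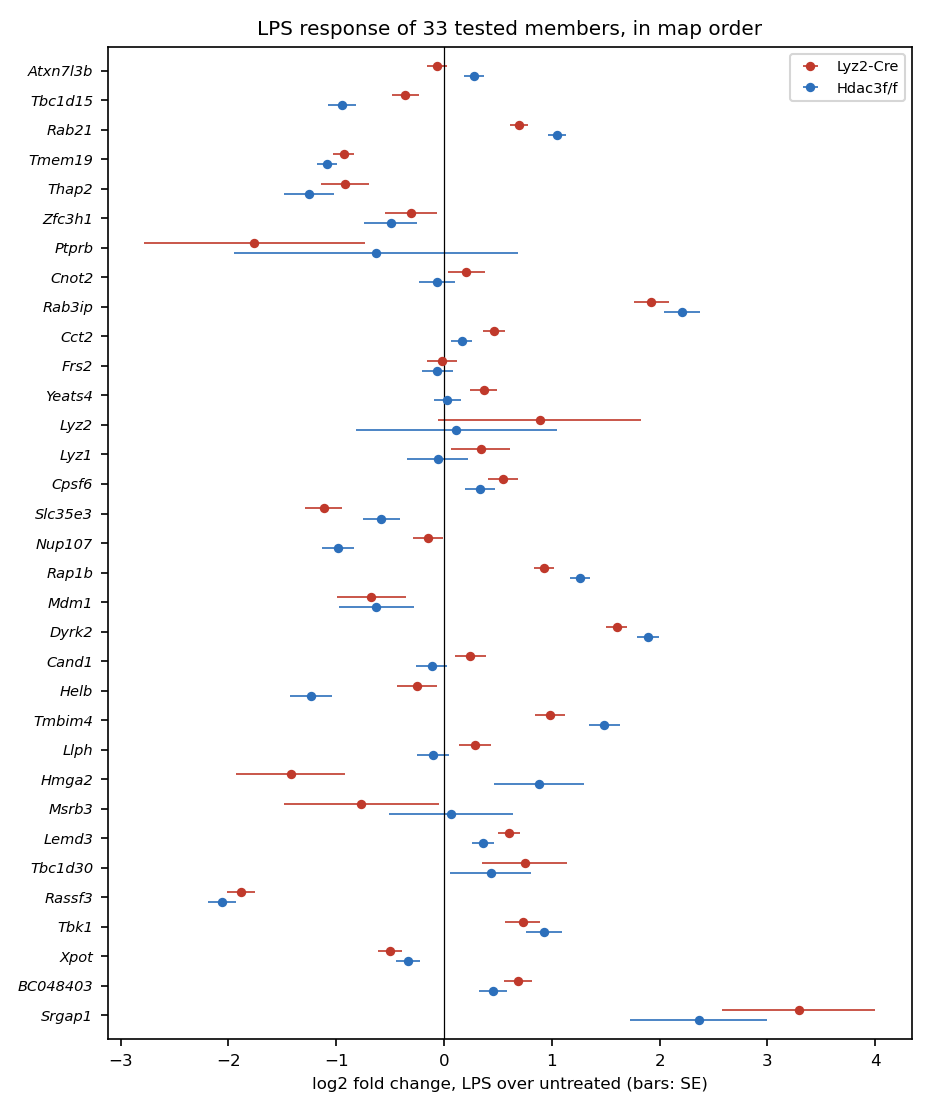
Log2 fold change of LPS over untreated (points) with SE (bars) in Lyz2-Cre and Hdac3f/f cells for 33 tested members in map order, with Il22, whose untreated counts were 0 or 1, among those not drawn. The genotypes had close responses for most members, while Nup107 and Helb had changes of -0.15 and -0.25 in Lyz2-Cre cells, against -0.98 and -1.24 in Hdac3f/f cells.

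The remaining 31 members had too few counts to be tested, and 12 of them had no count in any library. They were Glipr1l1, Glipr1l2, Glipr1l3, Caps2, Kcnc2, Trhde, Tph2, Lgr5, A930009A15Rik, Tspan8, Ptprr, 4933416C03Rik, Kcnmb4, Myrfl, Gm10271, Best3, Lrrc10, 9530003J23Rik, Cpm, Gm32717, Gm32802, Iltifb, Gm9040, Gm9044, Gm9045, Gm9046, Gm9048, Gm9049, Grip1, Wif1 and D930020B18Rik. Cpm, a membrane carboxypeptidase, had the most, with 39 counts over all 12 libraries. Genotype differences in these genes were not detectable at this depth. Iltifb is a near copy of Il22, and reads shared by these genes could be split between them, so the Il22 counts are uncertain in that respect.

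The authors' deposited table holds its own comparison of the genotypes, with ratios of Hdac3f/f over Lyz2-Cre, so its signs are opposite to those above. In the authors' deposited table Lyz1 was at -1.28 in untreated cells (adjusted p = 6.45e-07) and at -1.70 after LPS (adjusted p = 2.36e-09). In the authors' deposited table Lyz2 was at 1.57 in untreated cells (adjusted p = 0.526) and at 0.77 after LPS (adjusted p = 5.37e-06), so there the Lyz2 difference passed the threshold with LPS. In the authors' deposited table Tbk1 (-0.43, adjusted p = 0.0193) and Xpot (-0.30, adjusted p = 0.0329) also passed the threshold without LPS, which they missed here. The authors' deposited table had adjusted p under 0.05 for 4 of 47 members with a value without LPS, 2 of them also called by edgeR here, and for 11 of 45 with LPS, 9 of them also called here. These are 8.51% of the members without LPS and 24.4% with LPS, beside 9.94% and 18.1% of all genes with a value in the authors' deposited table.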

How the data were processed

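RNA-seq libraries of 12 macrophage cultures were aligned by the authors with TopHat2 to mm10, per the submitters' processing notes; the counting tool and annotation are not given in the sources used here. The authors deposited whole-number counts and FPKM per gene and library, normalised signal means per group, and log2 fold changes with p-values for the genotype comparisons. The deposited FPKM and signal values were not used. The deposited log2 fold changes and p-values are quoted where named.

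The members and gene lists were chosen with earlier results of these data known. From the counts, genes were kept by filterByExpr and scaled by TMM in edgeR 4.0.16 (R 4.3.3, limma 3.58.1), leaving 14286 tested genes. A quasi-likelihood model with 1 coefficient per group gave 5 contrasts, with Benjamini-Hochberg adjustment over all tested genes and calls at adjusted p under 0.05. CPM, with SD over n = 3, and RPKM from the deposited gene length were computed with the TMM-scaled library sizes. TMM factors ran from 0.716 to 1.26. On simulated data for the untreated contrast with 14286 genes, 66% of 97 genes changed by 1 on the log2 scale were called, 93.9% of 98 changed by 2, and 8.24% of calls were false. The simulation had no LPS effect, gave each gene the spread typical of its level and changed few genes. Its rates therefore need not hold for the real libraries.

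Genes named are both lysozymes, Hdac3, every called member (1 of them is not reported here), the 4 tested members nearest to Lyz2 on each side, the members that failed the filter, members of the role groups, and the 4 largest called rises and falls with LPS. The endothelial markers and the joint omission of 2 untreated libraries were added after the data were seen. Alternatives were other scalings (RLE, library totals), no filter, a replicate block, protein-coding genes alone, fits of the 2 groups compared, each library left out, DESeq2 1.42.0 and summed lysozyme counts. Where a library was left out the others keep the same model. Replicates differed from each other by more than counting noise (chi-square per gene 7.97 to 46.2). Precision at low levels is set by the depth of 16553432 to 18706990 counts per library.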

Additional observations from a re-analysis of the deposited data

Results flagged for a closer look

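The LPS responses of Nup107, Helb and Hmga2 differed between the genotypes by the interaction test, edgeR's quasi-likelihood test with Benjamini-Hochberg adjustment over all tested genes. As the response in Lyz2-Cre cells minus that in Hdac3f/f cells, the log2 difference was 0.84 for Nup107 (adjusted p = 0.0258) and 0.99 for Helb (adjusted p = 0.0406). It was -2.30 for Hmga2 (adjusted p = 0.0494). All 3 of these calls were lost when untreated Lyz2-Cre replicate 1, the library with 31.0 CPM of Lyz2, was left out, with adjusted p of 0.0580, 0.0807 and 0.0864. The estimates were then 0.84, 0.97 and -2.33, and 4.92% of all tested genes were called. This loss was not particular to that library. All 3 calls were also lost without untreated Hdac3f/f replicate 2, Hdac3f/f LPS replicate 3, untreated Lyz2-Cre replicate 2, or Lyz2-Cre LPS replicate 1 or 2.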

How the results depend on the processing

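In brackets is the share of all tested genes called in the same fit. The untreated count of 2 called members (11.8%) was 6 of 54 without the low-count filter (8.95%), 4 with DESeq2 (14.7%), 5 with untreated replicate 1 of both genotypes left out (13.5%, chosen after seeing the data), and 1 to 4 with each library left out (5.30% to 17.3%). The count of 11 with LPS (32.6%) was 18 by library totals alone (40.5%), 12 with DESeq2 (31.5%), and 5 to 19 with each library left out (19.0% to 40.8%). The interaction count of 4 (8.12%) was 2 without the filter (5.27%), 7 of 30 with DESeq2 (14.8%), 1 with both untreated libraries out (8.41%), and 0 to 7 with each library left out (3.61% to 13.6%). The LPS response counts stayed within 1.5 times under all alternatives run. With each library left out they were 18 to 22 in Lyz2-Cre cells (45% to 54.4%) and 17 to 20 in Hdac3f/f cells (53.3% to 59.4%). By library totals alone they were 19 (60%) and 26 (72.3%). The cause of these shifts was not tested, and leaving out a library also leaves fewer libraries in the fit.

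Whether equal replicate numbers mark paired samples cannot be decided with 3 libraries per group. Over 18 same-numbered pairs the correlation of deviations ran from -0.404 to 0.217, with 5 over 0.1. Between untreated and LPS libraries of 1 genotype, same-numbered pairs ran from 0.0109 to 0.134 (Lyz2-Cre) and from 0.00255 to 0.197 (Hdac3f/f). Differently numbered pairs there ran from -0.118 to 0.0904 and from -0.357 to 0.364. With a replicate block the counts were 3 without LPS (13.2% of all tested genes called), 12 with LPS (34.9%) and 3 in the interaction (8.37%). They were 21 (53.8%) and 20 (61%) in the LPS responses of Lyz2-Cre and Hdac3f/f cells. Of 80 named values 33 were called, and 0 of those changed sign under an alternative. By library totals alone 7 uncalled values changed sign, among them Hdac3 with LPS (-0.09, then 0.17). By library totals alone the 4 interaction calls (11.1% of all tested genes called) were all higher. Depth limits most the members with a mean under about 1 CPM in any group (Hmga2, Msrb3, Il22, Srgap1 and Ptprb among them), and the 31 untested members entirely.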
